A study of Mus musculus with 7 samples.

Results

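The replication-dependent histone genes of the Hist1, Hist2, Hist3 and Hist4 clusters were examined in 2 peak lists from anti-HA CUT&Tag, 1 for HA-tagged GATA2 and 1 for HA-tagged 9aa-Ins, in which an amino acid insertion separates the zinc fingers of GATA2. They were taken as all protein-coding genes of GENCODE M21 (mm10) whose symbol starts with Hist and a digit, which gave 67 of 21951 protein-coding genes. A gene counted as occupied when a list held a peak summit within 1 kb of it. The family was selected on the pileups and positions of peaks in these same lists. The counts, heights, ratios and intervals below are therefore descriptions and carry no test, including whether an interval lies above 1.

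CUT&Tag uses an antibody to bring a transposase to a chromatin protein, so that the DNA around the protein is cut, tagged and sequenced. Both groups were hi-77-/- cells, mouse fetal liver progenitors immortalized with HoxB8 that lack the Gata2 -77 enhancer and are therefore depleted of GATA2, infected with a retrovirus expressing HA-GATA2 or HA-9aa-Ins and sorted for GFP after culture. The protein came from a retroviral vector in both groups, and the replicates of a construct were split from 1 pool of infected cells. Of 7 libraries in the labels, 4 were made with anti-HA antibody, 2 for each construct, and each list merges its 2 replicates. The files therefore give no spread between replicates, the 3 anti-GATA2 libraries are not analysed here, and the lists hold no expression values with which to check the cell type. No control list was analysed here, so that occupied means only that a peak was called.

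Core histones H2A, H2B, H3 and H4 form the nucleosome, and the linker histone H1 binds the DNA where it enters and leaves. The clustered genes supply most histone protein during S phase. They lack introns in their coding part, end in a stem-loop instead of a poly(A) tail, and are often arranged as divergent H2A and H2B pairs that share the DNA between their starts. GATA2 is a zinc finger transcription factor of hematopoietic stem and progenitor cells that binds WGATAR (W is A or T, R is A or G).

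The sequences between 5 divergent pairs are shown first, because 3 of them lay under peaks among the 10 highest of the 9aa-Ins list, the 4th is the Hist2 pair with a lower peak, and the 5th lay under no peak. All sequences are the plus strand of GRCm38.p6 between the annotated gene starts, 5′ to 3′. Capitals mark WGATAR, CCAAT (bound by NF-Y), TATAAA (the TATA box) and ATTTGCAT (the octamer bound by POU factors) on either strand. The Hist1h2ac–Hist1h2bc interval is chr13:23683949-23684198, Hist1h2ae–Hist1h2bg is chr13:23571221-23571395, Hist1h2ag–Hist1h2bj is chr13:22042945-22043213, Hist2h2ac–Hist2h2be is chr3:96220881-96221118 and Hist1h2bq–Hist1h2ao is chr13:21810198-21810464.
Hist1h2ac–Hist1h2bc: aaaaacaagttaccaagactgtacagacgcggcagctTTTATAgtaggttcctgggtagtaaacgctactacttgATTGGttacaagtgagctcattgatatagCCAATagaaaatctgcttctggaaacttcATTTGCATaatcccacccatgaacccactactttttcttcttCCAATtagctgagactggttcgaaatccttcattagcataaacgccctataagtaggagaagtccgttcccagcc
Hist1h2ae–Hist1h2bg: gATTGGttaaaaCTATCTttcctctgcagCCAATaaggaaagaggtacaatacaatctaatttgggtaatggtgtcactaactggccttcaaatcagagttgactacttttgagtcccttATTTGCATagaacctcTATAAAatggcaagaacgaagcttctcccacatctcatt
Hist1h2ag–Hist1h2bj: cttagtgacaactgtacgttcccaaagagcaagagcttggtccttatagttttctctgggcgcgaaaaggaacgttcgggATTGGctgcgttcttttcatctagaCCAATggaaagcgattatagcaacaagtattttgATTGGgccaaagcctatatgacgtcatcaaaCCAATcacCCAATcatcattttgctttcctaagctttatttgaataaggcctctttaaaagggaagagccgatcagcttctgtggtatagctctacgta
Hist2h2ac–Hist2h2be: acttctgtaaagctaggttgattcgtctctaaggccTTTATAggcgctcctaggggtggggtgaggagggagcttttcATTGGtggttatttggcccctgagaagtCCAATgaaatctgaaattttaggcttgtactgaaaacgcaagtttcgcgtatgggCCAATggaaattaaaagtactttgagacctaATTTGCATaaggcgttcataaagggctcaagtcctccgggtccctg
Hist1h2bq–Hist1h2ao: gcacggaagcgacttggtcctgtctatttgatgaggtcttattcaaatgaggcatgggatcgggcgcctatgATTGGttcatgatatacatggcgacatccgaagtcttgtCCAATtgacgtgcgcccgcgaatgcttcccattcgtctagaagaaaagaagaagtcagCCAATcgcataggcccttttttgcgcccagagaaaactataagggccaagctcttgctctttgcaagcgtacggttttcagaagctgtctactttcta

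Histone genes differed in what lay beneath their summits. The GATA2 summit between Hist1h2ah and Hist1h2bk, shown with 50 bases to each side (chr13:22035726-22035826), held a WGATAR and an octamer, as did the window of the 9aa-Ins summit at the same pair. The 9aa-Ins summit of the H1 gene Hist1h1d, shown in the same way (chr13:23555104-23555204), lay inside the coding sequence and held none of the 4 motifs, and the window of the GATA2 summit there held none either.
Hist1h2ah–Hist1h2bk summit: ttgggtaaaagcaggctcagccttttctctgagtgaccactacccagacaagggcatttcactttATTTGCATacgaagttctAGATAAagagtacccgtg
Hist1h1d summit: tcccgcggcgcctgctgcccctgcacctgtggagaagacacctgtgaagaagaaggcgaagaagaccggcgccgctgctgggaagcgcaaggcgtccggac

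Most histone genes had a summit within 1 kb in both lists. Inside the gene itself, 35.8% had a summit with GATA2 and 26.9% with 9aa-Ins. Over all protein-coding genes those shares were 13.9% and 2.84%. With GATA2, 55 of the 67 genes (82.1%, Wilson 95% interval 71.3 to 89.4) had a summit within 1 kb, whereas 21.6% of all protein-coding genes did. With 9aa-Ins, 54 genes (80.6%, 69.6 to 88.3) had one, against 5.02% of all protein-coding genes. The same 54 genes had a summit in both lists, which held for 4.71% of all protein-coding genes. Genes of a cluster share peaks and sequence, and these intervals treat them as independent and cover counting error only.

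The remaining gene with a GATA2 summit was Hist1h4i, an H4 gene, with 53 reads over its GATA2 summit. Its coding span was nonetheless wholly inside the 9aa-Ins peak of the neighbouring Hist1h2ag–Hist1h2bj pair (97 reads), a peak 4454 bp wide that has only 1 summit. The count of GATA2-only genes therefore rests on where a wide peak has its summit. At the limit of the rule, the outermost genes inside it were Hist1h2ad with GATA2 (806 bp from its summit, 51 reads) and Hist1h2af with 9aa-Ins (996 bp, 77 reads). The first gene outside was Hist2h2aa2 in both lists, at 1353 bp from a GATA2 summit of 15 reads and 1381 bp from a 9aa-Ins summit of 21 reads.

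By class, all 13 H4 genes, 11 of 12 H3 genes, 5 of 6 H1 genes, 13 of 18 H2A genes and 13 of 18 H2B genes had a GATA2 summit. The 9aa-Ins counts were the same apart from H4, with 12 genes. By cluster, 46 of 54 Hist1 genes had a GATA2 summit and 45 a 9aa-Ins summit, and 8 of 10 Hist2 genes and the single Hist4 gene had a summit in both lists. Neither Hist3 gene had a summit in either list.

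Peak height was read as the pileup, the count of reads that cover the summit, which was recovered as a whole number from the fold enrichment of each peak. The lowest called pileup was 9 reads in both lists, and the background, the reads expected at any position, was 0.464 with GATA2 and 0.455 with 9aa-Ins. These values stood in for depth, since library totals were not analysed here. Histone genes supplied 57 of 6254 GATA2 peaks (0.911%) and 49 of 1079 9aa-Ins peaks (4.54%). Their median pileup was 32 reads with GATA2, against 15 for the whole list, and 43 reads with 9aa-Ins, against 13. Of the 50 highest peaks of each list, 8 belonged to histone genes with GATA2 and 30 with 9aa-Ins. Histone peaks were also wide, with medians of 652 bp with GATA2 (whole list 341 bp) and 1155 bp with 9aa-Ins (whole list 299 bp).

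**Figure D1:**
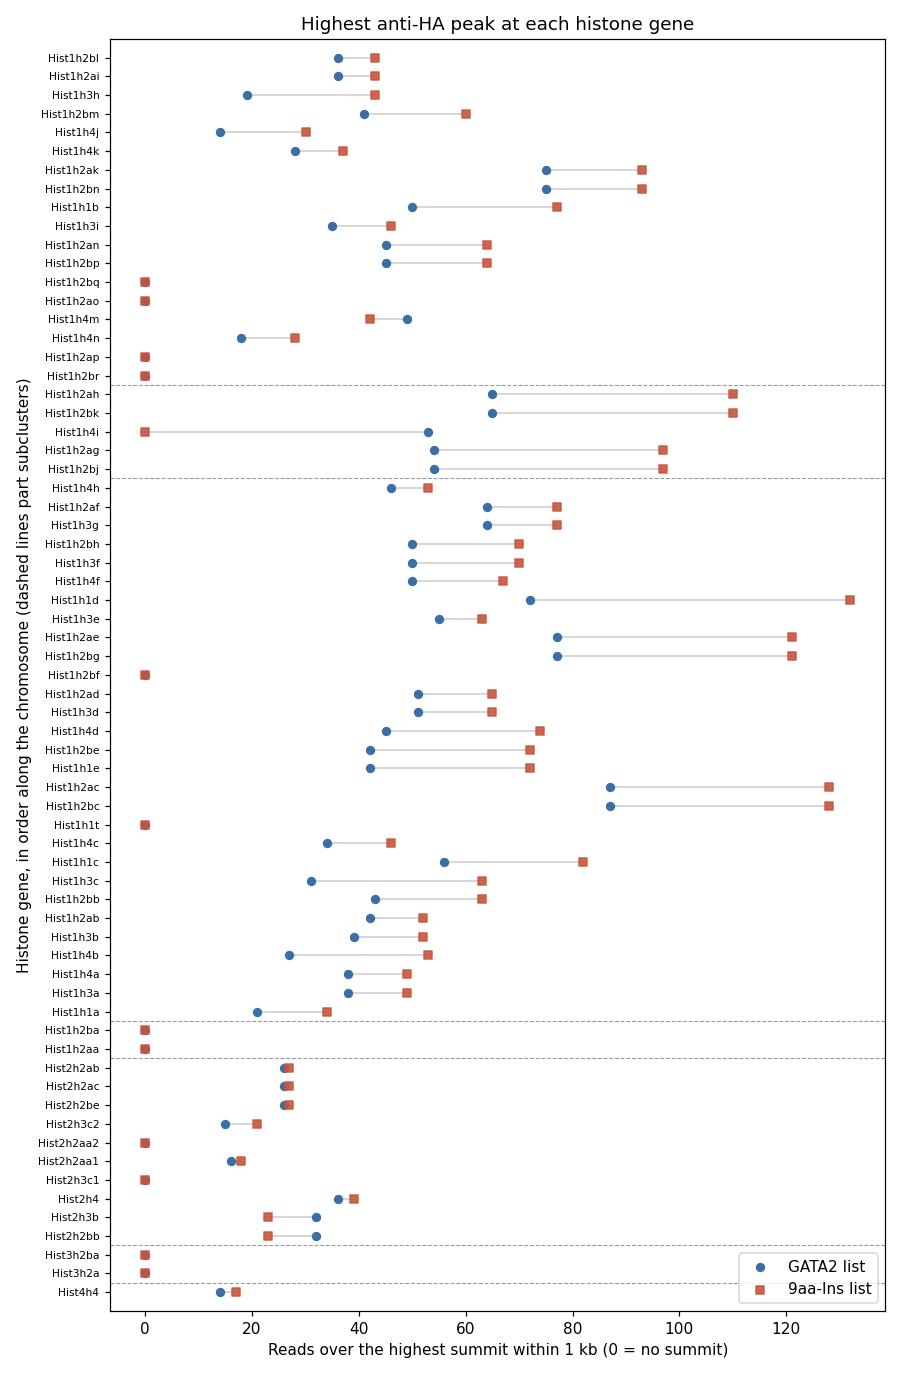
Pileup of the highest anti-HA summit within 1 kb of each of the 67 histone genes, set to 0 where no summit lies in reach, in order along each cluster, with reads on the x axis, circles for GATA2 and squares for 9aa-Ins. The 9aa-Ins point lies to the right of the GATA2 point at 51 of the 54 genes with a summit in both lists, and 12 genes have both points at 0.

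The highest pileups were at an H1 gene and at divergent H2A and H2B pairs in Hist1 on chromosome 13. Hist1h1d (ENSMUSG00000052565.7, plus strand, chr13:23553262-23560686), which encodes a linker histone, had 72 reads with GATA2 and 132 with 9aa-Ins, the highest peak of the whole 9aa-Ins list. The ratio of 9aa-Ins to GATA2 was 1.83 (exact conditional binomial 95% interval 1.37 to 2.48), and this and the following intervals cover counting error only. The pair Hist1h2ac and Hist1h2bc, whose shared interval is printed first above, had 87 reads with GATA2, the highest histone peak of that list, and 128 with 9aa-Ins. At Hist1h2ae and Hist1h2bg the pileup was 77 with GATA2 and 121 with 9aa-Ins. In each case the interval of the ratio lay above 1.

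The Hist1 genes fell into 4 groups more than 100 kb apart. The second group, of 5 genes in 8.51 kb (chr13:22035164-22043676), was the most densely covered, with 8.12 kb in and around it under 9aa-Ins peaks and 5.48 kb under GATA2 peaks. Its pairs had the most unequal pileups among the divergent pairs. Hist1h2ah and Hist1h2bk had 65 reads with GATA2 and 110 with 9aa-Ins, and Hist1h2ag and Hist1h2bj had 54 and 97. The median ratio of the 4 genes with both summits was 1.74. At the pair Hist1h2ak and Hist1h2bn in the first group the pileup was 75 with GATA2 and 93 with 9aa-Ins, a ratio of 1.24 whose interval (0.905 to 1.70) included 1. Hist1h2af and Hist1h3g in the third group were within reach of a peak of 64 reads with GATA2 and 77 with 9aa-Ins, and Hist1h2af also had a GATA2 peak of 29 reads at its own start.

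All 5 occupied H1 genes had the higher pileup with 9aa-Ins. Besides Hist1h1d, Hist1h1c had 56 reads with GATA2 and 82 with 9aa-Ins, Hist1h1b had 50 and 77, Hist1h1e had 42 and 72, and Hist1h1a had 21 and 34. Only for Hist1h1a did the interval of the ratio (0.913 to 2.94) include 1. At Hist1h1b the summits of the lists lay 832 bp apart, so its ratio compares different positions. The H1 genes also have few close copies, with 0 to 11.2% of their 31-base words repeated in the genome, where the median histone gene has 55.0%. The 6th H1 gene, Hist1h1t, the linker histone of the testis, had no summit and 0% repeated words.

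**Figure D2:**
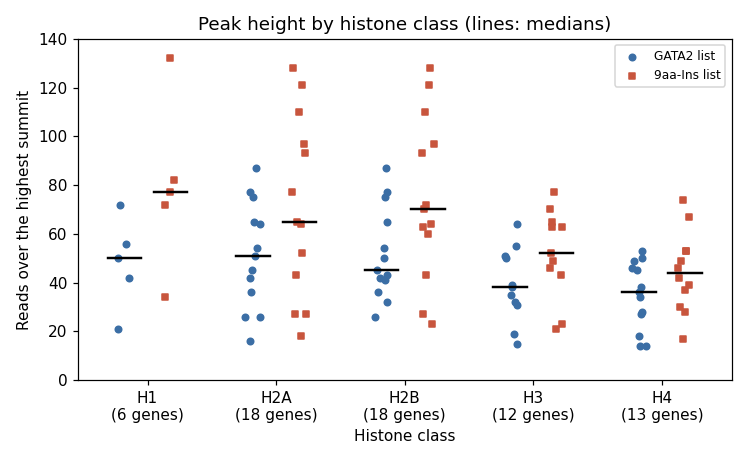
Reads over the highest summit for each gene with a summit, by histone class, with circles for GATA2, squares for 9aa-Ins and black lines at the medians. The 9aa-Ins median is the higher in every class, from 36 against 44 reads in H4 to 50 against 77 reads in H1.

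The median ratio per gene was 1.62 in H1, 1.46 in H2B, 1.33 in H4, 1.31 in H3 and 1.24 in H2A, with single genes from 0.719 to 2.26. These ranges overlapped widely, from 1.46 to 1.83 in H1 and from 1.04 to 1.80 in H2A. Because H2A and H2B genes often share a peak, the same pileup can count in both classes. For Hist1h2be, an H2B gene, the annotated model overlaps only the downstream end of Hist1h1e. The highest summit within reach of Hist1h2be was that of Hist1h1e, outside the Hist1h2be model. The peak at the coding start of Hist1h2be had 29 reads with GATA2 and 39 with 9aa-Ins.

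Further H2A and H2B genes of Hist1 that had a summit were also higher with 9aa-Ins. Hist1h2an and Hist1h2bp shared 45 reads with GATA2 and 64 with 9aa-Ins, Hist1h2bm had 41 and 60, and Hist1h2bb had 43 and 63. Hist1h2bl and Hist1h2ai shared 36 and 43 reads and Hist1h2ab had 42 and 52. Each of these 5 ratios, from 1.19 to 1.47, had an interval that included 1.

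The H3 genes, whose proteins carry the best known tail modifications, had, in the 11 with a summit, 15 to 64 reads with GATA2 and 21 to 77 with 9aa-Ins. Hist1h3e had 55 reads with GATA2 and 63 with 9aa-Ins, Hist1h3b had 39 and 52, Hist1h3i had 35 and 46, and Hist1h3a, which shared its peak with Hist1h4a, had 38 and 49. Hist1h3d, in a peak also within reach of Hist1h2ad, had 51 and 65, and Hist1h3f, within reach of the summits of Hist1h2bh, had 50 and 70. The GATA2 peak at the start of Hist1h3f itself had 32 reads, and the 9aa-Ins peak there was the one with its summit at Hist1h2bh. Hist1h3h (19 and 43 reads) and Hist1h3c (31 and 63 reads) had the largest ratios of the class, 2.26 and 2.03. In both the highest 9aa-Ins summit belonged to a wide peak with its summit nearer to a neighbouring gene, at -772 and -955 bp from the start codon, where the GATA2 summit was at -54 and -4 bp.

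The H4 genes were the class with a GATA2 summit at every member. Hist1h4d had 45 reads with GATA2 and 74 with 9aa-Ins, Hist1h4f had 50 and 67, Hist1h4h had 46 and 53, Hist1h4c had 34 and 46, Hist1h4k had 28 and 37 and Hist1h4n had 18 and 28. Of these only Hist1h4d had an interval of the ratio above 1 (1.12 to 2.44). At Hist1h4m and Hist1h4n, in which 92.3% and 94.9% of words were repeated, the summits lay beyond the coding end, between 618 and 628 bp from the start codon in both lists.

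The Hist2 genes on chromosome 3 had lower peaks and more even lists. Their median pileup was 26 reads with GATA2 and 25 with 9aa-Ins, and the median ratio was 1.04, compared with 1.42 in Hist1. Genes that share a peak were each counted in these medians, and 1 Hist2 peak, with a ratio of 1.04, was within reach of 3 genes. Hist2h4, an H4 gene, had 36 reads with GATA2 and 39 with 9aa-Ins. Hist2h2ac and Hist2h2be, the pair printed above, shared a peak of 26 and 27 reads that was also within reach of Hist2h2ab. Hist2h3c2, an H3 gene, had 15 and 21 reads and Hist2h2aa1, an H2A gene, 16 and 18.

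Hist2h3b and Hist2h2bb shared a peak of 32 reads with GATA2 and 23 with 9aa-Ins, a ratio of 0.719 (0.402 to 1.27). Together with the H4 gene Hist1h4m, with 49 reads with GATA2 and 42 with 9aa-Ins, these were the 3 genes with a lower pileup in 9aa-Ins. Hist4h4, the lone gene of its cluster on chromosome 6, had 14 and 17 reads. Every interval of a ratio in Hist2 and Hist4 included 1.

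To compare the lists with each shared peak counted once, overlapping peaks of both lists were joined into sites. Histone genes had 54 sites, of which 40 held a peak in both lists, 5 only with GATA2 and 9 only with 9aa-Ins. The pileup was higher with 9aa-Ins at 37 of the 40 shared sites, equal at 1 and lower at 2. Over all 936 shared sites of the genome, 12.3% had the higher pileup with 9aa-Ins, and among the 896 shared sites away from histone genes 78 did. The median ratio was 1.35 at histone sites and 0.647 at the other sites. The interval of the ratio lay wholly above 1 at 11 histone sites, which are 11 of the 16 such sites in the genome (1.71% of shared sites). It lay wholly below 1 at 0 histone sites and at 211 other sites. Because the family was selected on these same pileups, these counts of intervals are descriptions and not tests. Histone sites also had a higher median GATA2 pileup than the other shared sites, and more reads give a narrower interval. How far this accounts for the share of 11 in 16 was not tested.

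The 11 sites were those of Hist1h1b, Hist1h1c, Hist1h1d, Hist1h1e, Hist1h4b, Hist1h4d, Hist1h4j and the pairs Hist1h2ac–Hist1h2bc, Hist1h2ae–Hist1h2bg, Hist1h2ag–Hist1h2bj and Hist1h2ah–Hist1h2bk. Hist1h4j had the largest ratio, 2.14 (1.10 to 4.37), from 14 reads with GATA2 and 30 with 9aa-Ins. Hist1h4b followed with 27 and 53 reads. The summits of the lists lay 909 bp apart at Hist1h4j and 832 bp apart at Hist1h1b, so these ratios compare different positions. Summed over the 40 shared histone sites, the pileup was 1629 with GATA2 and 2274 with 9aa-Ins, whereas over the other 896 sites it was 21442 and 13439.

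Since the ratio at other sites varied with the GATA2 pileup, sites were set side by side at similar GATA2 pileup. From 9 to 19 reads, 7 of 7 histone sites and 60 of 352 other sites were higher with 9aa-Ins. From 20 to 39 reads the counts were 10 of 12 and 13 of 485, from 40 to 59 reads 14 of 15 and 3 of 44, and from 60 reads upward 6 of 6 and 2 of 15. The median ratio of histone sites was between 1.30 and 1.52 in each range, and that of the other sites between 0.380 and 0.812. At the 655 other shared sites within 1 kb of a gene start, 50 were higher with 9aa-Ins.

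**Figure D3:**
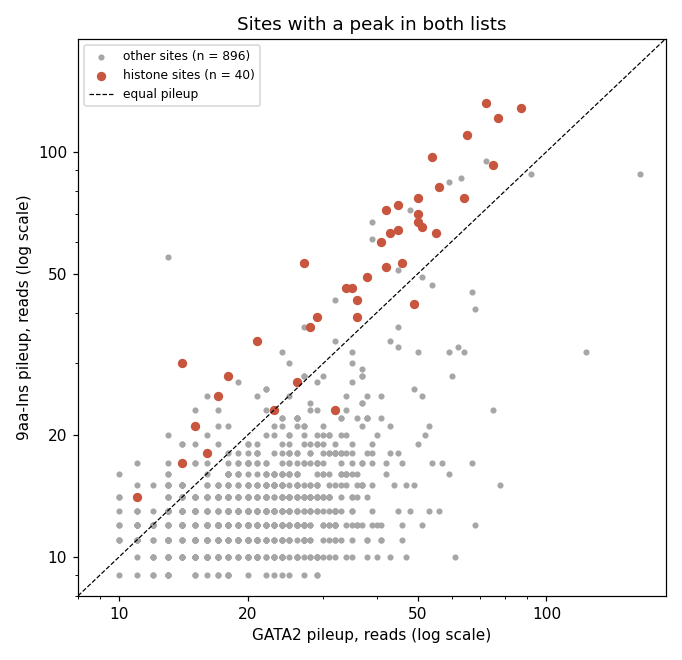
Pileup with GATA2 (x axis) and with 9aa-Ins (y axis) at every site with a peak in both lists, in reads on log scales, with a dashed line at equal pileup. Of the histone sites 37 of 40 lie above the line, and of the other sites 78 of 896.

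Overlap was counted in both directions, because the lists differ in length and histone peaks in width. Of the 57 histone peaks with GATA2, 52 (91.2%, Wilson 95% interval 81.1 to 96.2) overlapped a 9aa-Ins peak, against 15.3% of the whole GATA2 list. Of the 49 histone peaks with 9aa-Ins, 40 (81.6%, 68.6 to 90.0) overlapped a GATA2 peak, against 88.0% of the whole list. The 9 unshared 9aa-Ins peaks had 10 to 23 reads, below the median of 43 for histone peaks, although the whole list has a median of 13. They lay near Hist1h2an (23 reads), Hist1h3e (19), Hist1h4d and Hist1h2be (13), Hist1h2be (12), Hist1h2bm (11), Hist1h1d (11), Hist1h1c (11), the pair Hist2h2ab and Hist2h2ac (11) and Hist1h2bl (10). Each of these genes also had a shared peak. The 5 unshared GATA2 peaks, near Hist1h4k, Hist1h4b, Hist2h3b, Hist1h2ac and Hist2h3c2, had 9 to 13 reads.

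Summits lay on both sides of the coding starts. The median position of a gene's highest summit, relative to the start codon, was -43.0 bp with GATA2 and -28.5 bp with 9aa-Ins, and at shared histone sites the summits of the lists were a median of 33.5 bp apart, compared with 92 bp at other sites. The highest summit lay within 200 bp of the start codon in 32 of 55 genes with GATA2 and 27 of 54 with 9aa-Ins. Of all histone peaks, 19 of 57 (33.3%) with GATA2 and 16 of 49 (32.7%) with 9aa-Ins had their summit beyond the coding end of the nearest gene. The 9aa-Ins peaks reached further across the genes. They covered the whole coding span of 45 genes, whereas GATA2 peaks covered it in 32, and each list left 15 coding spans uncovered. Histone peaks covered 51.4 kb with GATA2 and 68.0 kb with 9aa-Ins. A peak with a higher pileup passes the calling limit over a longer stretch, and how far this accounts for the width was not tested.

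**Figure D4:**
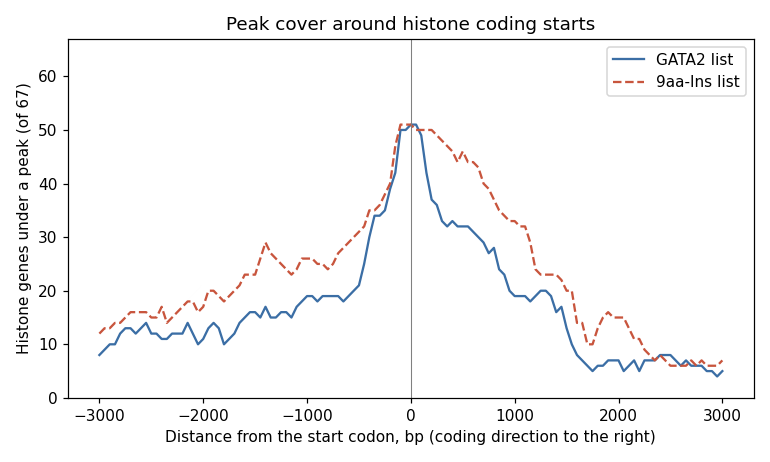
Number of the 67 histone genes whose position at each distance from the start codon, in bp along the coding direction, lies under a peak, with a solid line for GATA2 and a dashed line for 9aa-Ins. Both lines peak at 51 genes at the start codon, and from 100 bp to 1 kb after it the 9aa-Ins line lies above the GATA2 line, with 33 against 19 genes at 1000 bp.

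The 12 genes with no summit in either list were of different kinds. Hist1h1t and the pair Hist1h2ba and Hist1h2aa, which are testis variants, had none of their coding span under a peak, and the same held for both Hist3 genes, Hist3h2ba and Hist3h2a. Hist1h2bf lay wholly under the wide peaks of Hist1h2ae–Hist1h2bg in both lists, with both summits over 1 kb away. Hist2h3c1 had 35.7% repeated words.

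The remaining 5, Hist1h2bq, Hist1h2ao, Hist1h2ap, Hist1h2br and Hist2h2aa2, consisted only of repeated words (100%). They include 2 divergent H2A and H2B pairs, of which the Hist1h2bq–Hist1h2ao interval is printed above. Reads from identical copies cannot be placed at 1 of them, and how the authors treated such reads is not given in the sources used here. Absence of a peak at these 5 genes is therefore not a measured absence of occupancy. The median share of repeated words was 55.0% in genes with a summit and 55.8% in those without. Among the 9 histone genes with under 10% repeated words, 7 had a summit in each list, and of the 14 shared sites with under 10% repeated words around both summits 13 had the higher pileup with 9aa-Ins.

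Within 100 bp of the summit WGATAR was found in 12 of 57 histone peaks with GATA2 (21.1%), against 30.3% of the whole list, and in 8 of 49 with 9aa-Ins (16.3%), against 12.1%. Anywhere in the peak, in histone peaks that are wider than most, the direction with GATA2 changed, to 52.6% against 41.3%. With 9aa-Ins the shares were then 59.2% against 21.4%. Promoter motifs were counted within 100 bp of the summit. TATAAA was found in 28.1% of histone peaks with GATA2 and 28.6% with 9aa-Ins, against 4.17% and 5.84% of the lists. CCAAT was found in 45.6% and 42.9%, against 25.2% and 26.7%. The octamer was found in 10.5% and 8.16%, against 1.01% and 1.20%. AAACACA, an element of H1 promoters, was found in 3.51% and 4.08%, against 3.15% and 2.69%.

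The same motifs were counted from 250 bases before to 50 after each annotated gene start, on both strands, where they describe the letters and not binding. CCAAT was found at 56 of 67 histone gene starts (83.6%) and 39.0% of all protein-coding gene starts, including all 18 H2A and all 18 H2B starts but only 4 of 13 H4 starts. TATAAA was found at 37 (55.2%) and 12.6% of all. The octamer was found at 15 (22.4%), namely 7 H2A and 8 H2B genes, and at 1.57% of all. AAACACA was found at 4 of 6 H1 starts, 9 histone starts in all (13.4%) and 6.40% of all starts. WGATAR was found at 18 histone starts (26.9%), 8 of them among the 12 H3 genes and 0 among the 13 H4 genes, and at 27.6% of all starts. WGATAR did lie within 100 bp of a summit at Hist1h4c in both lists and at Hist1h4a with GATA2.

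Genes that act together with the clustered histone genes were counted in the same way, and over all protein-coding genes 21.6% had a summit with GATA2, 5.02% with 9aa-Ins and 4.71% in both lists. The pileup was lower with 9aa-Ins at 794 of the 936 shared sites of the genome, so that a lower pileup was the usual outcome. Of 14 histone genes outside the clusters, which encode replication-independent variants, 5 (35.7%) had a summit in both lists, and all 5 had the lower pileup with 9aa-Ins. They were H2afv (30 reads with GATA2 and 12 with 9aa-Ins), H2afz (25 and 12), H3f3b (25 and 19), H3f3a (19 and 12) and H2afx (17 and 12). Of 21 genes that regulate or process histone transcripts, 7 (33.3%) had a GATA2 summit and 2 (9.52%) a 9aa-Ins summit, Ccne2, a cyclin of the G1 to S transition (19 and 14), and Yy1, a zinc finger factor (13 and 15).

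Of 32 DNA replication genes, 14 (43.8%) had a GATA2 summit and 6 (18.8%) a 9aa-Ins summit, each lower with 9aa-Ins. Among them were the replication licensing or helicase genes Gins2 (32 reads with GATA2 and 13 with 9aa-Ins), Mcm7 (25 and 11), Mcm4 (22 and 16), Mcm6 (18 and 13) and Cdt1 (15 and 11). Hfe, the iron regulator that is the only other protein-coding gene between the first and last gene of a group, with groups parted at gaps over 100 kb, had 22 reads with GATA2 and 26 with 9aa-Ins. These lists were chosen with earlier results of the same peaks known and are given as counts.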

How the data were processed

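The peaks came from anti-HA CUT&Tag of rescued hi-77-/- cells. The authors used Bowtie2 for alignment to mm10, left out duplicates and blacklisted regions, and called peaks by MACS3 (q-value 1e-06). Tool versions and any filter on mapping quality are not given in the sources used here. Per the labels each list merges 2 replicates. In the deposited columns, the score is 10 times −log10 of the q-value, cut to a whole number, and set the stricter q-value; the fold enrichment is the ratio of pileup plus 1 to background plus 1; and the −log10 p-value is that of the authors' peak caller. Every fold enrichment gave a whole pileup (100%, within 6.46e-04 reads), whose Poisson p-values matched the deposited ones within 5.17e-04 on the −log10 scale. 0 columns belonged to other samples.

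Summits were linked to genes of GENCODE M21 within 1 kb of the gene model (coordinates from 1), peaks overlapped at 1 bp or more, and a site took the highest pileup of each list. Shares have Wilson intervals, ratios exact Clopper-Pearson intervals conditional on the sum of both pileups, all at 95% and for counting error only, because reads after PCR are not independent molecules. Repeated words are 31-base words found more than once in GRCm38.p6 on either strand. Motifs were searched on both strands. Python 3.11.15, pandas 2.3.3, scipy 1.17.1 and numba 0.67.0 were used, and the procedures were tested on simulated data. The members and lists were chosen with earlier results of these data known. Named genes are all H1, Hist2, Hist3 and Hist4 genes, those near unshared 9aa-Ins peaks, the 10 with the highest summit in each list, those with only a GATA2 summit, and genes of the comparison lists with a 9aa-Ins summit, of which not every gene is reported here. The other histone genes were named after their values were seen. Alternatives covered reach, overlap rule, q-value, motif window, scaling and repeated sequence.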

Additional observations from a re-analysis of the deposited data

How the results depend on the processing

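No paired analysis was possible because the replicates were merged in both lists, and for the same reason no replicate could be left out. Of 36 alternative values 20 stayed within the counting interval of the reported value and 16 moved. A change of direction was not scored. For WGATAR with GATA2 the comparison with the whole list changed direction with the window, as the values below show. The share of genes with a summit followed the reach: with GATA2 it was 35.8% with the summit inside the gene, 65.7% within 200 bp and 94.0% within 5 kb, and with 9aa-Ins 26.9%, 52.2% and 94.0%. Over all protein-coding genes these shares were 13.9%, 18.6% and 24.8% with GATA2 and 2.84%, 3.91% and 5.99% with 9aa-Ins. Linking each summit to its nearest histone gene only gave 68.7% and 58.2%, since neighbouring genes share summits. A reciprocal overlap of 50% left 57.9% of histone GATA2 peaks and 67.3% of histone 9aa-Ins peaks shared, and summits within 200 bp left 63.2% of the GATA2 peaks. With 1 value per gene, the median pileup was 43 reads with GATA2 and 63 with 9aa-Ins. WGATAR within 50 bp of the summit was found in 12.3% of histone GATA2 peaks (18.3% of the whole list), and anywhere in the peak, in histone peaks that are wider than most, in 52.6% with GATA2 (41.3% of the whole list) and 59.2% with 9aa-Ins (21.4%). The median ratio of 1.38 per gene was 1.40 with pileups over their background and 1.38 for overlapping peaks only. The higher pileup with 9aa-Ins at histone sites, with alternatives chosen after seeing the data, held at 38 of 40 sites over background, 91.2% with summits within 200 bp, 92.9% with under 10% repeated words and 92.3% at a q-value of 1e-10. Counting error is wide at single genes: Hist1h4f, with 50 and 67 reads, had a ratio of 1.34 whose interval (0.915 to 1.97) includes 1.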

Other observations

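Of the 3 Hist models annotated as pseudogenes, Hist1h2aj, which lies beside Hist1h2bm, had a summit within 1 kb of 41 reads with GATA2 and 60 with 9aa-Ins, the peak also linked to Hist1h2bm. Hist3h2bb-ps and Hist1h2al had no summit in either list.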
